A study of Nicotiana tabacum with 6 samples.

Results

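The chlorophyll a/b-binding antenna proteins were followed in tobacco leaf through 76 of the 69500 gene models in the expression tables, chosen because their description contains the words Chlorophyll A-B binding. Antenna proteins sit in the thylakoid membrane of the chloroplast, hold chlorophyll a, chlorophyll b and carotenoids, and pass absorbed light energy to the reaction centres of photosystem I and photosystem II. They are encoded by families of nuclear genes and imported into the chloroplast. Transcripts of these genes are a classic readout of light signalling through phytochromes, the red and far-red light receptors, and are also set by the circadian clock and the state of the chloroplast.

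RNA was sequenced from young seedling leaves of Nicotiana tabacum, variety NC82, that had spent 24 h at 4 °C. There were 3 libraries from plants overexpressing the gene NtPhyA (OE) and 3 from wild-type plants (WT). Both groups were chilled and no unchilled library was analysed, so the comparison is between plant materials under cold and not between cold and warmth. The labels give neither the promoter of the transgene nor the number of lines, and do not say whether replicates were separate plants, so a p-value reflects library-to-library spread alone, and that spread may be technical.

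The overexpression could not be seen in the tables, so OE and WT are the submitters' labels throughout. The files do not say which model is NtPhyA, and 9 models name the phytochrome chromophore domain. They summed to 9.75, 3.82 and 4.36 in OE replicates 1, 2 and 3, and to 9.40, 4.57 and 1.6 in WT replicates 1, 2 and 3, in the deposited normalized values. Of these, 2 were abundant enough to test. Of the 2, 0 passed limma's adjusted threshold or an unadjusted p below 0.05, the latter against 2.82% of all tested models. The more abundant, Nitab4.5_0016503g0010, was at 6.55, 1.34 and 2.71 in OE and 5.96, 2.06 and 0 in WT, and the groups overlapped. Whether the transgene's reads were counted in any of these models is not known here.

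Each library gives every model a normalized abundance, and the labels do not say if that is TPM or FPKM. Any ranking of models by level assumes that they are scaled by length. Library totals lay between 440137 and 475581 in OE and between 450972 and 568208 in WT, with the highest total in WT replicate 3. By the step that 1 read makes in low values, WT replicate 3 was shallowest, at 0.747 times the depth of OE replicate 2, the deepest. This assumes that values are scaled by model length and the read total of the library. Read totals themselves are not known here. In whole leaves, fewer cells of a type and less RNA per cell cannot be told apart.

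Of the 76 antenna models, 65 were above 0 in at least 1 library and 11 were listed at 0 in all 6. Testing required an average of 1 or more across libraries, and 50 models met it. Their level was uneven: 18 averaged 50 or more, 20 lay from 5 to 50 and 12 from 1 to 5. The files pair no gene symbols with the models, and the descriptions do not separate the antenna of photosystem I from that of photosystem II. In 66 of the 76 the description also names the plant form of the family, and in 10 it does not.

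Summed antenna abundance differed several-fold between libraries of the same plant material. The 76 models summed to 8217, 4416 and 1651 in OE replicates 1, 2 and 3, and to 6172, 3152 and 1296 in WT replicates 1, 2 and 3. The groups overlapped, with OE replicate 1 highest and WT replicate 3 lowest. As a share of the library total, antenna models made up 1.73, 0.978 and 0.375% in OE and 1.34, 0.699 and 0.228% in WT. The mean sum was 4761 ± 3296 in OE and 3540 ± 2461 in WT (SD, n = 3 each), a ratio of 1.35, or 0.43 on the log2 scale. Without OE replicate 1 the log2 ratio was -0.22, and without WT replicate 1 it was 1.10. Within a group, the highest library exceeded the lowest by 4.98 times in OE and 4.76 times in WT.

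**Figure D1:**
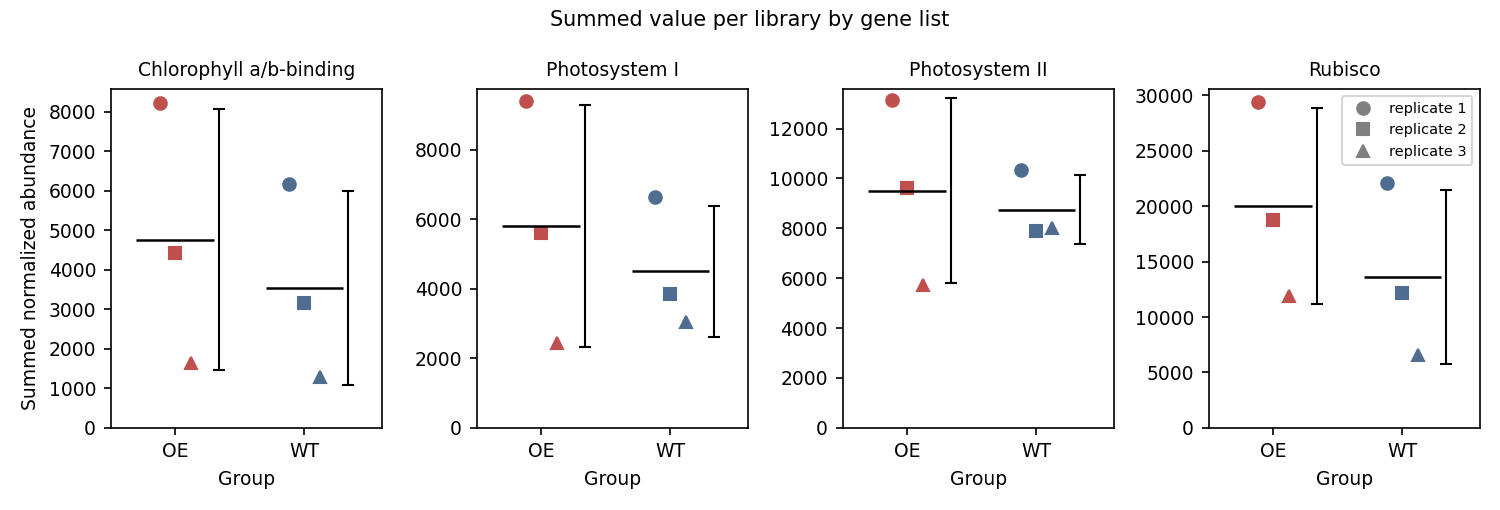
Summed normalized abundance per library (y axis, from 0) of the antenna, photosystem I, photosystem II and Rubisco models in OE and WT (x axis). Each symbol is 1 library, the horizontal line is the group mean and the bar beside it is ± 1 SD (n = 3). Antenna sums run from 1651 to 8217 in OE and from 1296 to 6172 in WT.

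A large part of the signal came from a few models. The 4 most abundant antenna models held 44.8, 50.3 and 58.3% of the antenna sum in OE replicates 1, 2 and 3, and 43.4, 53.5 and 54.6% in WT replicates 1, 2 and 3. The libraries with the highest sum thus drew a smaller part of it from these 4 models. In the same order, 18, 11 and 5 antenna models reached 100 in OE, and 17, 8 and 5 did in WT. Models above 0 varied less, from 53 to 60 in OE and from 50 to 57 in WT.

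No antenna model was called different between OE and WT. With limma on log2(value + 1) across all 17962 tested models, 0 of 50 antenna models passed a Benjamini-Hochberg adjusted p of 0.05, against 0.00557% of all tested models, which is 1 model. At an unadjusted p below 0.05 limma gave 0 of the 50 antenna models, against 2.82% of all tested models. The smallest unadjusted limma p of an antenna model was 0.102, and the adjusted p of every tested one was 0.999.

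The direction of the differences was mostly toward higher values in OE. Of the 50 tested models, 41 had a positive log2 difference (OE minus WT) and 9 a negative one, which is 82% positive, against 48.3% of all tested models. The median log2 difference was 0.45 for the antenna models and -0.01 for all tested models. In the ratio of mean values, OE over WT, the antenna models ran from 0.225 to 2.98 with a median of 1.45. By mean value 38 of the 50 were higher in OE, since the log2 difference and the ratio of means can differ in direction. The direction rested on single libraries: the median was -0.02 without OE replicate 1 and 0.02 without WT replicate 3, and 1.19 without OE replicate 3 and 1.13 without WT replicate 1. The count of positive differences was then 23 of 48 models, 26 of 50, 48 of 50 and 48 of 50.

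**Figure D2:**
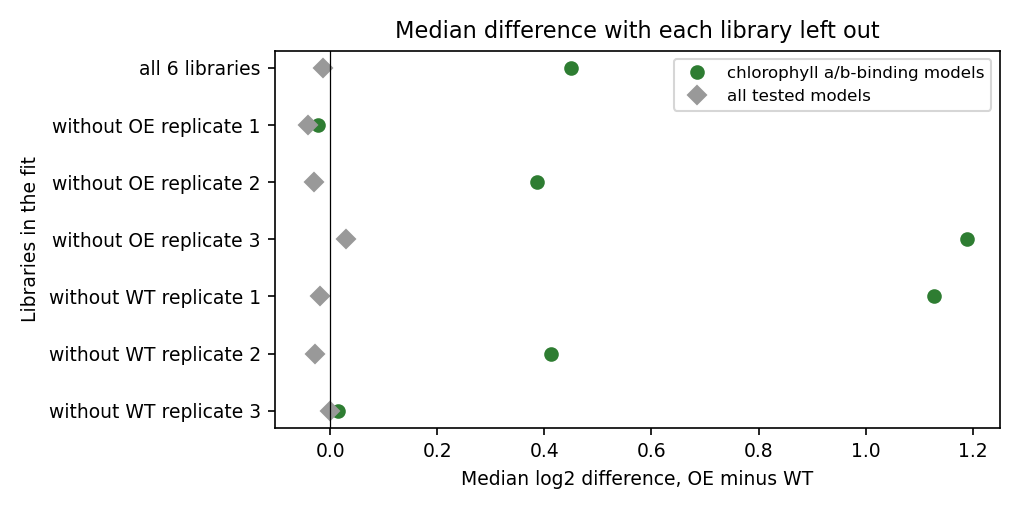
Median log2 difference (x axis, OE minus WT) of the antenna models (circles) and of all tested models (diamonds) with all 6 libraries and with each library left out (y axis). The antenna median is 0.45 with all 6 libraries and lies between -0.02 and 1.19 when 1 is left out, while the median of all tested models stays between -0.04 and 0.03.

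The most abundant antenna model, Nitab4.5_0027240g0010, was at 1245, 632 and 281 in OE replicates 1, 2 and 3, and at 950, 725 and 171 in WT replicates 1, 2 and 3. In log2 terms OE minus WT came to 0.30 ± 0.78 (SE), with a 95% confidence interval from -1.53 to 2.13 (limma adjusted p = 0.999). The groups overlapped, and both contained a library several times lower than its highest one.

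Next came Nitab4.5_0011597g0020, at 989, 594 and 243 in OE and 650, 345 and 184 in WT. Nitab4.5_0000335g0220 was at 918, 551 and 219 in OE and 610, 253 and 183 in WT. These models had mean values 1.55 and 1.61 times as high in OE as in WT, with log2 differences of 0.59 ± 0.64 and 0.66 ± 0.64 (SE; limma adjusted p = 0.999 for both). In each of them OE replicate 3 lay below WT replicates 1 and 2, so the groups were not separate.

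Nitab4.5_0000977g0030, a model without the plant form in its description, had a narrower range, at 531, 443 and 219 in OE and 471, 365 and 168 in WT. Nitab4.5_0000322g0160, also without it, reached 330, 194 and 73.8 in OE and 429, 137 and 64.0 in WT, and its highest library was thus a WT one. Its mean was 0.948 times as high in OE as in WT, though its log2 difference was positive, at 0.11. Nitab4.5_0000476g0110 was at 372, 223 and 110 in OE and 194, 108 and 104 in WT, and here all OE values but that of replicate 3 exceeded every WT value.

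The other 6 of the 12 most abundant models had means from 101 to 185 over the 6 libraries. In Nitab4.5_0006054g0010 the values were 360, 227 and 91.9 in OE and 263, 140 and 29.0 in WT. Nitab4.5_0001229g0120 was at 430, 217 and 29.7 in OE and 247, 61.1 and 36.6 in WT, a span of 14.5 times within OE alone. Its mean was 1.97 times as high in OE, with a log2 difference of 0.77 ± 1.07 (SE; limma adjusted p = 0.999). The remaining models of this set, Nitab4.5_0005511g0010, Nitab4.5_0000639g0230, Nitab4.5_0000592g0320 and Nitab4.5_0000441g0070, had log2 differences of 0.47, 0.52, 0.38 and 0.37.

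**Figure D3:**
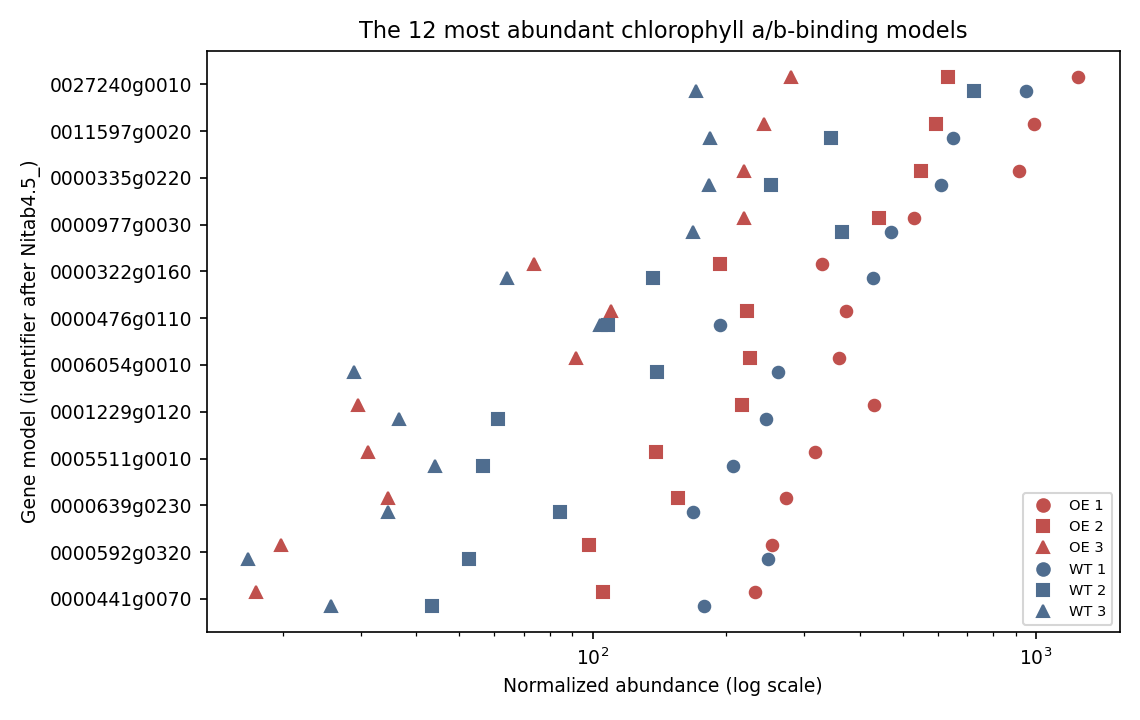
Normalized abundance (x axis, log scale) of the 12 most abundant antenna models (y axis) in each of the 6 libraries. OE is red and drawn just above WT in blue, with the replicate number shown by the symbol. In each of these 12 models the triangle (replicate 3) is the lowest and the circle (replicate 1) the highest of its group.

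Among models averaging 5 or more, the largest positive difference belonged to Nitab4.5_0029285g0010, at 43.6, 30.6 and 2.29 in OE and 27.3, 2.73 and 1.38 in WT. In log2 terms it differed by 1.40 ± 1.22 (SE; 95% confidence interval from -1.46 to 4.26; limma adjusted p = 0.999). OE replicate 2 was near the high libraries in this model and WT replicate 2 near the low ones. Nitab4.5_0004286g0030 had the highest ratio of means, 2.98, at 28.3, 21.2 and 2.72 in OE and 11.3, 4.84 and 1.36 in WT. Nitab4.5_0000592g0350 was at 57.5, 15.9 and 2.15 in OE and 30.3, 2.15 and 1.18 in WT, with a log2 difference of 1.29 ± 1.29 (SE; limma adjusted p = 0.999). Nitab4.5_0002210g0070 (1.14) and Nitab4.5_0002814g0010 (1.12) followed in log2 difference. All 5 overlapped between groups, with OE replicate 3 inside the WT range.

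The largest negative difference belonged to Nitab4.5_0011941g0010, whose description also names a beta/gamma crystallin domain. It was at 80.1, 20.9 and 7.29 in OE and 104, 372 and 4.72 in WT, with a log2 difference of -1.31 ± 1.52 (SE; 95% confidence interval from -4.88 to 2.26; limma adjusted p = 0.999). WT replicate 2 alone stood far above the rest, and without that library the log2 difference was -0.0023. It was the only one of the 50 tested antenna models whose highest library was WT replicate 2. The other negative differences among models at this level were -0.41 in Nitab4.5_0000471g0030, -0.36 in Nitab4.5_0004269g0080, -0.15 in Nitab4.5_0002342g0170 and -0.01 in Nitab4.5_0006300g0020.

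In 1 antenna model the values of the groups did not overlap, against 7.87% of all tested models in either direction, 4.01% toward higher and 3.86% toward lower values in OE. This was Nitab4.5_0000060g0040, close to the abundance minimum, at 1.38, 1.15 and 1.01 in OE and 0.99, 0.94 and 0.74 in WT. The log2 difference of this model came to 0.20 ± 0.28 (SE), with a limma adjusted p of 0.999.

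The antenna models ranked the libraries alike. Of the 50 tested models, 34 were highest in OE replicate 1 and 12 in WT replicate 1, while 35 were lowest in WT replicate 3 and 14 in OE replicate 3. Replicate 1 was highest and replicate 3 lowest in both groups at once in 41 of 50 models (82%), against 15.2% of all tested models. This ordering was noticed in the values before it was counted, and the models share the same 6 libraries, so the count describes these libraries only.

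**Figure D4:**
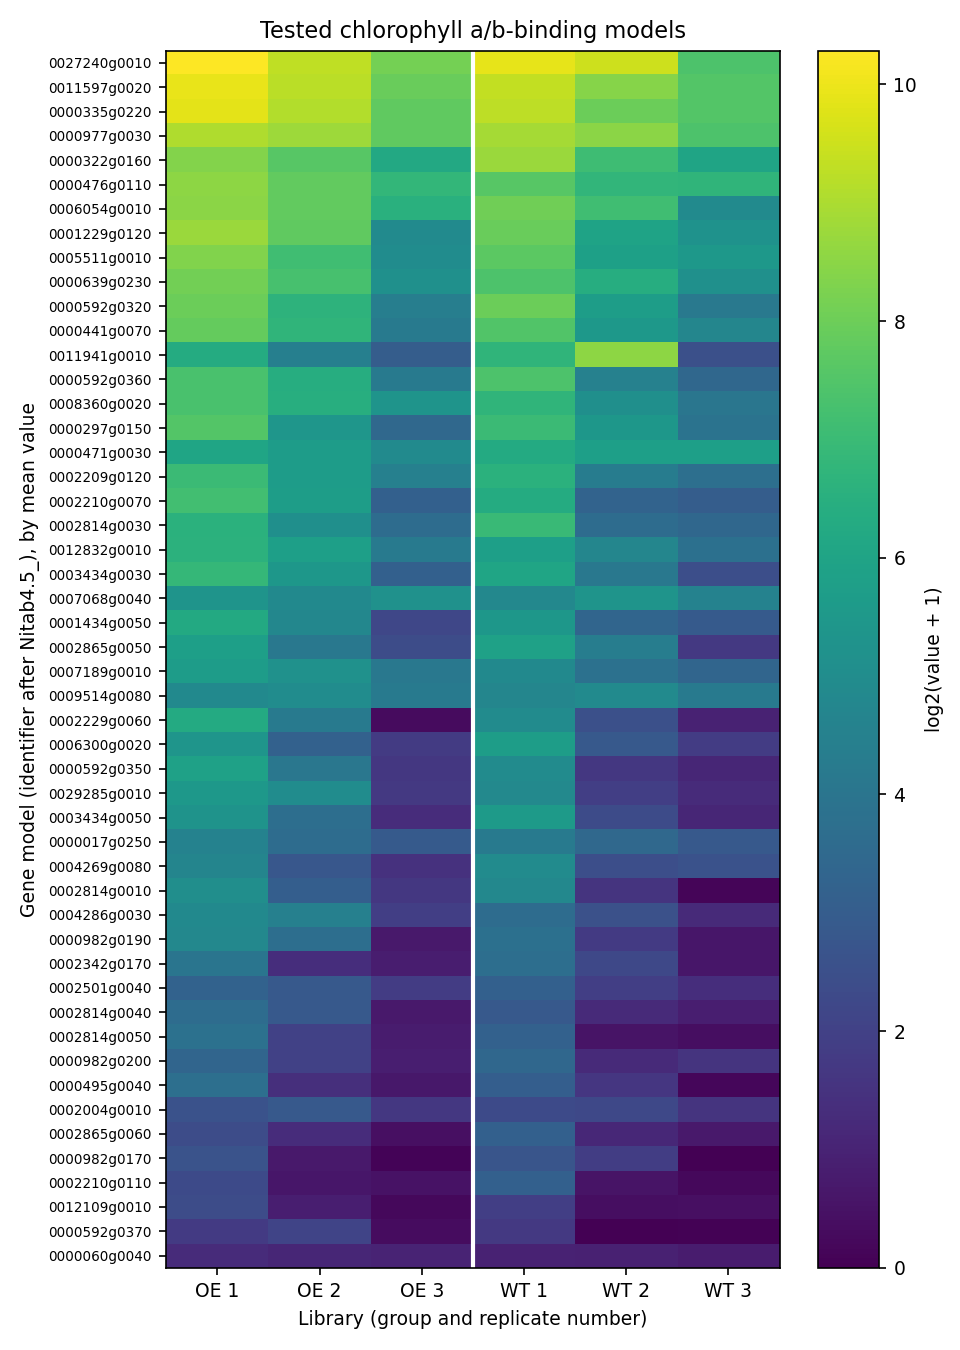
Values of the 50 tested antenna models (rows, by mean) in the 6 libraries (columns), as log2(value + 1) in colour, with OE left of the white line and WT right of it. In most rows replicate 1 is the brightest and replicate 3 the darkest of its group, and a few rows near the middle are even across all 6.

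The spread within groups was wide for this family. The median within-group SD was 1.37 log2 units over the 50 tested antenna models and 0.43 over all tested models. Related lists were also above that level, with medians of 0.94 in photosystem I, 0.81 in photosystem II and 0.87 in Rubisco models, and 1.07 in mesophyll markers. In 40 of the 50 the SD lay among the highest 10% of all tested models, and in 35 among the highest 5%. The highest over the lowest value within OE had a median of 11.1 for antenna models and 1.86 for all tested models. Within WT these medians were 7.52, over the 48 antenna models above 0 in all 3 libraries, and 1.89. Such ratios exceeded 10 in 28 antenna models within OE and in 19 within WT, against 3.74% of all tested models within OE and 3.03% within WT. In 48 of 50 the within-group SD was larger than the difference between the groups. That count was not made over all tested models, so it is not read as particular to the family.

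Abundant models spanned less than those of middle level. The median ratio of highest to lowest library was 5.27 in OE and 6.72 in WT for the 18 models averaging 50 or more. It was 14.6 in OE and 13.6 in WT for the 20 models with a mean from 5 to 50. Over all tested models in the same ranges of the mean the medians were 1.62 in OE and 1.83 in WT, and 1.70 in OE and 1.76 in WT. The widest SD belonged to Nitab4.5_0002229g0060, at 78.0, 17.2 and 0.24 in OE and 30.4, 4.74 and 1.00 in WT.

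**Figure D5:**
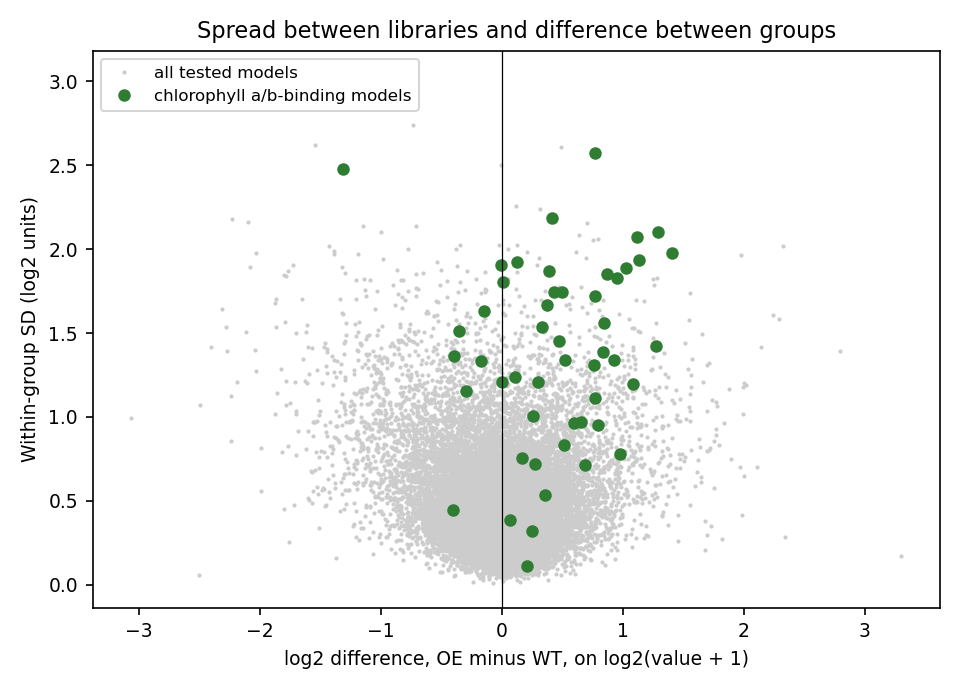
Within-group SD in log2 units (y axis) against the log2 difference, OE minus WT (x axis), for the 50 tested antenna models (large points) over all 17962 tested models (small points). Most antenna models lie high on the SD axis, with a median of 1.37 against 0.43, and 41 of them lie right of 0.

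A few antenna models were steady across libraries when set beside the rest of the family. Apart from Nitab4.5_0000060g0040, the following had the lowest within-group SD, and they are named for that reason, with values known. Nitab4.5_0007068g0040 was at 39.4, 28.1 and 36.2 in OE and 26.7, 38.6 and 22.7 in WT. Nitab4.5_0009514g0080 was at 28.2, 30.7 and 17.7 in OE and 25.4, 29.3 and 17.7 in WT. Nitab4.5_0000471g0030 was at 64.5, 50.3 and 29.5 in OE and 76.4, 54.5 and 54.8 in WT. In these models the ratio of highest to lowest library was between 1.40 and 2.19 in OE and between 1.40 and 1.70 in WT. None met the library order of the family in full. Nitab4.5_0000471g0030 missed it only by 54.5 against 54.81 in WT replicates 2 and 3, and its SD was at percentile 52.8 of all tested models. Nitab4.5_0009514g0080 had replicate 3 lowest in both groups.

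Models were also split by the wording of the description. Of the 5 tested models that do not name the plant form, 1 was among the highest 10% of within-group SD, against 39 of the 45 that do. Their median ratio of highest to lowest library was 2.42 in OE and 2.06 in WT, against 12.6 in OE and 8.97 in WT for the others. The exception among the 5 was Nitab4.5_0000322g0160, with an SD of 1.24 log2 units, and the steady models Nitab4.5_0000060g0040 and Nitab4.5_0009514g0080 do name the plant form. This split was made after the values were seen, and no test of it is given. Nitab4.5_0001557g0010, a further model of this kind, joins the antenna domain to ferrochelatase, the enzyme that inserts iron into protoporphyrin to make haem. It was listed at 0.19 in OE replicate 2 and at 0 in the other libraries.

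Many antenna models share the first part of their identifier, which in this naming scheme stands for the genome scaffold. The 76 models fell on 61 such stems, and 8 stems carried 23 of the models. The largest group, Nitab4.5_0000592, had 6 antenna models of very unequal level. Nitab4.5_0000592g0320 had a mean of 115 and Nitab4.5_0000592g0360 one of 77.2 over the 6 libraries, Nitab4.5_0000592g0350 one of 18.2 and Nitab4.5_0000592g0370 one of 1.37. The models Nitab4.5_0000592g0290 and Nitab4.5_0000592g0380 were listed at 0 throughout. The 4 expressed ones all had positive log2 differences, of 0.38, 0.87, 1.29 and 0.79.

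Nitab4.5_0002814 carried 4 antenna models, led by Nitab4.5_0002814g0030 at 93.3, 33.9 and 11.6 in OE and 126, 11.5 and 9.76 in WT. The means of the other 3 over the 6 libraries lay between 4.31 and 11.8. On Nitab4.5_0000982 the 3 antenna models had log2 differences of -0.40, 1.02 and -0.0026. Antenna genes on 1 scaffold can be near-identical copies, and how the authors' counting divided reads between copies is not known, so values of single models on these stems are uncertain.

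Just outside the family as defined here stood 17 models with the antenna domain but without the words Chlorophyll A-B binding. Proteins with this domain include early light-induced proteins and PsbS, which act in protection from excess light, but the files do not say which models these are. Of the 17, 12 were tested. Among them 0 passed limma's adjusted threshold or an unadjusted p below 0.05, the latter against 2.82% of all tested models. Of the 12, 9 had a positive log2 difference, against 48.3% of all tested models, and the median of the 12 was 0.17. They varied less between libraries than the antenna family, with a median within-group SD of 0.77 log2 units. The most abundant, Nitab4.5_0002815g0100, was at 207, 164 and 87.2 in OE and 188, 98.7 and 110 in WT.

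Photosystem and Rubisco genes had medians of the same sign, and 0 of their models passed limma's adjusted threshold. Photosystem I subunits had 28 of 32 tested models with a positive log2 difference and a median of 0.44. Photosystem II subunits and oxygen-evolving proteins had 38 of 53 and a median of 0.22, and Rubisco models 16 of 18 and a median of 0.57. Over all tested models 48.3% were positive, with a median of -0.01. At an unadjusted p below 0.05 limma gave 0 photosystem I, 1 photosystem II and 0 Rubisco models, against 2.82% of all tested models. Replicate 1 was highest and replicate 3 lowest in both groups in 40.6% of photosystem I, 47.2% of photosystem II and 61.1% of Rubisco models, beside 82% of antenna models. In the mesophyll marker list, which shares models with the Rubisco and photosystem I lists, it was 15 of 16 tested models (93.8%).

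The antenna sum moved more steeply across libraries than those of the photosystems it serves. Relative to the photosystem II sum it was 0.625, 0.459 and 0.288 in OE replicates 1, 2 and 3, and 0.597, 0.399 and 0.162 in WT replicates 1, 2 and 3. Relative to photosystem I it was 0.874, 0.788 and 0.676 in OE and 0.930, 0.817 and 0.426 in WT. Relative to Rubisco it was 0.279, 0.236 and 0.138 in OE and 0.279, 0.259 and 0.197 in WT. The photosystem II sum is led by PsbR, a small protein of the oxygen-evolving side, with Nitab4.5_0000313g0040 at 2888, 2399 and 1676 in OE and 2590, 1627 and 2710 in WT. Nitab4.5_0002475g0030, also PsbR, averaged 2235 ± 647 in OE and 2135 ± 442 in WT (SD, n = 3 each). The photosystem I sum is led by the PsaE model Nitab4.5_0004333g0020, at 873 ± 435 in OE and 866 ± 138 in WT, followed by the PsaD model Nitab4.5_0014875g0010, at 399 ± 284 in OE and 293 ± 233 in WT (SD, n = 3).

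Rubisco is the carbon-fixing enzyme, and its small subunit model Nitab4.5_0002207g0050 was at 18789, 12759 and 8902 in OE and 14600, 8737 and 4279 in WT. Nitab4.5_0001382g0020, another small subunit model, averaged 2920 ± 1588 in OE and 2036 ± 1254 in WT (SD, n = 3).

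Chlorophyll synthesis, which supplies the pigment, had 21 of 29 tested models with a positive log2 difference, against 48.3% of all tested models. Its median was 0.35, and 0 models passed limma's adjusted threshold. At an unadjusted limma p below 0.05 there was 1, against 2.82% of all tested models. Its most abundant model, the magnesium chelatase subunit Nitab4.5_0006237g0030, was at 53.3 ± 26.3 in OE and 39.7 ± 17.7 in WT. Porphobilinogen synthase, Nitab4.5_0000502g0120, was at 36.3 ± 19.2 in OE and 32.8 ± 12.4 in WT (SD, n = 3).

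The chlorophyll breakdown and stay-green list had 4 of 16 tested models with a positive difference, against 48.3% of all tested models. Its median was -0.22, and 0 models passed limma's adjusted threshold. At an unadjusted limma p below 0.05 there was 1, against 2.82% of all tested models. The stay-green model Nitab4.5_0010544g0020, of a family that helps remove chlorophyll from antenna complexes, was at 37.9 ± 5.8 in OE and 43.3 ± 6.3 in WT. Nitab4.5_0000668g0080, whose description names a Rieske domain and pheophorbide a oxygenase, was at 31.9 ± 12.2 in OE and 37.7 ± 14.2 in WT (SD, n = 3). The description alone does not say which enzyme it is. The list was matched on such description words, so it may not hold breakdown enzymes alone.

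The list for antenna insertion held 6 tested models, 4 of them with a positive difference, against 48.3% of all tested models. Its median was 0.19. It is led by models described as OXA1/ALB3/YidC membrane insertases, a family whose chloroplast member ALB3 places antenna proteins in the thylakoid. Nitab4.5_0001800g0050 was at 66.3 ± 11.1 in OE and 53.3 ± 16.0 in WT, and Nitab4.5_0005133g0030 at 62.4 ± 10.8 in OE and 52.9 ± 11.1 in WT (SD, n = 3). The electron carrier list had 43 of 103 with a positive difference, against 48.3% of all tested models, and a median of -0.07. Its pattern also took transketolases and ribosomal protein L30, so it is not read as electron carriers, and its highest member was a plant ferredoxin, Nitab4.5_0000667g0190, at 844 ± 751 in OE and 1029 ± 739 in WT. In both lists 0 models passed limma's adjusted threshold or an unadjusted p below 0.05, the latter against 2.82% of all tested models.

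Marker lists for cell types were set beside the label of leaf tissue, since libraries of a leaf sample can differ in cell makeup. Mesophyll markers (Rubisco small subunit, PsaD and phosphoribulokinase) were abundant in all 6 libraries, with 2 of 23 models at 0. They summed to 31245, 19687 and 12322 in OE replicates 1, 2 and 3, and to 23713, 12681 and 6993 in WT, the same order of libraries as the antenna sum. Terpene synthases, used as trichome markers, summed to 373, 508 and 1052 in OE and 320, 614 and 455 in WT, with 71 of 160 models at 0. Seed markers summed to between 148 and 419 in OE and between 326 and 748 in WT, with 19 of 57 models at 0, and their most abundant model was the LEA-25 model Nitab4.5_0008334g0040, at 161, 337 and 106 in OE and 522, 265 and 627 in WT. The pollen list, whose most abundant models were expansins, summed to between 995 and 1407 in OE and between 825 and 1527 in WT, with 70 of 165 models at 0. The mesophyll markers are photosynthesis genes themselves, so cell makeup and expression per cell cannot be told apart from them. The part of cell makeup in the antenna values was not tested.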

How the data were processed

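Per the labels' protocols, total RNA was made into TruSeq libraries and sequenced as paired ends. The submitters' processing notes name HISAT2, StringTie and RSEM. No software version, setting or genome build is stated there. The authors deposited a table for each plant material, holding normalized values for each library and their mean, which was not used. Comparing the tables assumes a common normalization. No read counts were used, so the test was the one fixed for normalized values. A pseudocount of 1 was added before taking log2, and models averaging 1 or more (17962) entered limma 3.58.1 in R 4.3.3 (trend and robust, 4 residual degrees of freedom, group alone). P-values were adjusted by Benjamini-Hochberg over all tested models. The code was tested on simulated data. The antenna models and lists were chosen with earlier results of these data known.

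Named antenna models were those called, the 12 with the highest mean, the 5 with the largest differences in each direction among those averaging 5 or more, those without overlap, up to 6 with a description other than the commonest, and 2 per pathway list. Others are named for their SD or identifier. Alternatives were another pseudocount, 2 other filters, 2 scalings, a block for replicate number, and each library left out in turn.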

Additional observations from a re-analysis of the deposited data

How the results depend on the processing

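No antenna model was called under any of the alternatives run. The 1 model called among all those tested was lost, leaving 0, with a pseudocount of 0.1, with no filter, with equal totals, with median ratio scaling, with the replicate block and without any 1 library (range 0 to 0). The count was 1 when models had to reach 1 in 3 or more libraries. The number of antenna models with a positive log2 difference was 41 of 50. It lay between 40 and 52 under the pseudocount, filter, scaling and block alternatives, with 65 models tested where no filter was used. Without 1 library it ranged from 23 to 48, and the median log2 difference from -0.02 to 1.19. The log2 ratio of mean antenna sums, OE over WT, was 0.43 and ranged from -0.22 to 1.10. Equal totals moved the share of all models with a positive log2 difference to 58.0% and that of antenna models to 86%. The median over all models was then 0.07.

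With the replicate block, which leaves fewer residual degrees of freedom, 13 of the 50 antenna models had an unadjusted limma p below 0.05, against 0 without it. Over all 17962 tested models that number was 1183 with the block and 507 without it. The smallest adjusted p of an antenna model with the block was 0.705. Deviations from the group means correlated at 0.56, -0.11 and 0.42 between same-numbered libraries, and OE replicate 2 correlated best with WT replicate 1. The labels do not say whether same-numbered libraries were handled together, and a shared batch was not tested.

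Among the 23 named models, 1 changed sign outside the fits that left out a library: Nitab4.5_0006300g0020, at 0.0596 with equal totals. The cause was not tested. Without 1 library the log2 differences that changed sign ranged from -0.46 to 0.85 in Nitab4.5_0027240g0010, from -0.15 to 0.66 in Nitab4.5_0000977g0030, from -0.53 to 0.83 in Nitab4.5_0000322g0160 and from -0.0285 to 1.88 in Nitab4.5_0001229g0120. They ranged from -0.28 to 1.38 in Nitab4.5_0005511g0010, from -0.10 to 1.37 in Nitab4.5_0000639g0230, from -0.52 to 1.39 in Nitab4.5_0000592g0320 and from -0.43 to 1.40 in Nitab4.5_0000441g0070. For models with a negative log2 difference, they ranged from -0.96 to 1.11 in Nitab4.5_0006300g0020 and from -1.21 to 0.45 in Nitab4.5_0004269g0080. In Nitab4.5_0002342g0170, with a negative log2 difference but a mean 1.04 times as high in OE, they ranged from -1.12 to 0.62. The other 12 named models kept their sign in each fit that tested them. Nitab4.5_0000060g0040 was below the abundance minimum without OE replicate 1 and has no value there. There were 3 libraries in each group and read counts were not known, so the precision of single values rests on the spread between libraries.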

Other observations

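Some models stood out in WT replicate 2 alone, as the crystallin-domain antenna model Nitab4.5_0011941g0010 did. Among all 9899 tested models averaging 5 or more, WT replicate 2 exceeded the next highest library by over 1.5 times in 1.87%. The counts were 1 of 38 antenna, 0 of 27 photosystem I, 1 of 40 photosystem II and 0 of 12 Rubisco models. They were 0 of 18 for chlorophyll synthesis and 4 of 85 for the electron carrier list. The photosystem II model was the PsbQ model Nitab4.5_0002345g0070, a protein of the oxygen-evolving complex, at 1264, 901 and 529 in OE and 867, 2375 and 674 in WT. These models were picked by their values, and the pattern was not tested.

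The 2 most abundant models of the pollen list were expansins, proteins that loosen cell walls during growth, and both were lowest in replicate 1 of each plant material, where the antenna sum was highest. Nitab4.5_0009567g0010 was at 121, 232 and 533 in OE replicates 1, 2 and 3, and at 179, 524 and 525 in WT. Nitab4.5_0002055g0020 was at 35.3, 119 and 391 in OE and 84.7, 245 and 402 in WT. These 2 models were picked by their abundance and do not stand for the list. Of its 39 tested models, 28 were highest in replicate 1 among the OE libraries and 18 in replicate 1 among the WT libraries. Over all 17962 tested models these counts were 7898 and 6213. Next in abundance was Nitab4.5_0000194g0060, at 267, 242 and 111 in OE and 106, 45.8 and 50 in WT. The part of these models in the antenna values was not tested.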
